A study of Rattus norvegicus with 9 samples.

Results

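The mitochondrial ribosomal protein genes of the rat were followed across cultured kidney fibroblasts given TGF-β1 with either of 2 compounds or with vehicle. Members were taken from the deposited gene table by symbol, as every row whose symbol begins with Mrpl or Mrps and a number and which had a count above 0 in any library. The symbol rule matched 76 rows, and 74 of them had such a count, out of 15031 genes with a count and 22050 genes in the table. The 74 members were 45 genes of the large subunit (Mrpl) and 29 of the small subunit (Mrps). Of these, 71 passed the low-count filter, 42 large-subunit and 29 small-subunit genes, among 11473 genes tested in all.

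NRK-49F is an established line of fibroblasts from rat kidney, and the labels give its genotype as wt. Of the 9 RNA-seq libraries, 3 came from cells given TGF-β1 and YEXX-2A, 3 from cells given TGF-β1 and YWCH-4A and 3 from cells given TGF-β1 and vehicle. All groups thus shared TGF-β1 for 48 h, a signal under which fibroblasts lay down matrix. The compounds are known by code name only, and the labels give neither dose nor time for them. No library of cells free of TGF-β1 was analysed here. The 3 libraries of a group are called biological replicates in the series' design text, of a single cell line, and nothing further is said of how the cultures were kept apart. P-values therefore measure the spread between these libraries.

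The mitochondrial ribosome translates the few proteins encoded in mitochondrial DNA, all of them membrane subunits of the respiratory chain and ATP synthase. Its RNAs are made inside the organelle, whereas its proteins are encoded in the nucleus, translated in the cytosol and imported. The small subunit holds the mRNA and reads its codons, and the large subunit forms the peptide bond and releases the new chain at the inner membrane. Many of its proteins descend from the bacterial ribosome, and others have no bacterial counterpart. The roles given below come from work on bacterial, yeast and mammalian ribosomes.

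Changes of these transcripts were small and went in both directions. Against vehicle, 9 of 71 tested members rose and 10 fell with YEXX-2A (26.8% called, against 36.1% of all tested genes). With YWCH-4A 11 rose and 7 fell (25.4% called, against 30.6% of all tested genes). No tested member changed 2-fold in any comparison, while Mrpl1, which failed the low-count filter, had no count in any YEXX-2A library. The shifts were not shared evenly between subunits, taken by symbol: with both compounds the summed transcripts of the large subunit were lower relative to those of the small subunit than with vehicle, and both comparisons use the same 3 vehicle libraries. The member with the smallest p was Mrps12, a decoding-site gene that stood higher with YWCH-4A than with YEXX-2A. In bulk RNA, fewer cells of a kind and less RNA per cell cannot be told apart.

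Total counts ran from 13675880 to 21923706 per library, and no pair of libraries held identical counts. The biological coefficient of variation was 7.32% among YEXX-2A libraries, 3.66% among YWCH-4A libraries and 16.6% among vehicle libraries, and 4.68% among the vehicle libraries without replicate 2, which stood apart. The counts of called members are therefore also given without that library, while the other gene lists are given with all libraries only. Of 8 fibroblast markers, all 8 had counts, and their summed level was 32007 to 35323 CPM with YEXX-2A, 10342 to 11264 CPM with YWCH-4A and 42694 to 55669 CPM with vehicle. Their sum is set mostly by Col1a1, while the fibroblast markers Thy1 and Dcn were below 1 CPM in mean in every group. Of 10 kidney epithelium markers 4 were at 0 in all libraries, among them the defining Epcam, and Krt8 gave most of the sum of 1516 to 1602, 916 to 964 and 1785 to 2298 CPM with YEXX-2A, YWCH-4A and vehicle. Endothelial markers summed to 1.63 to 4.32, 2.75 to 3.99 and 2.22 to 2.80 CPM in the same order of groups. Leukocyte markers summed to 41.7 to 45.1, 66.2 to 73.7 and 47.3 to 62.9 CPM, nearly all of it Cd68, while Ptprc was at or near 0. The part of these markers in the results was not tested.

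Promoters show what many of these genes share at the DNA level. In RefSeq's promoter table of assembly GRCr8, 59 members had an entry, of 250 bases before and 50 after the annotated start. The motif AAGATGGC of the factor YY1, searched on both strands like all motifs here, lay in 15 of 59 member promoters (25.4%), against 5.95% of the 8706 promoters of other tested genes and 3.44% of all 27457 promoters. It contains ATG, and in a promoter window it can lie at the start codon. The ETS-family motif CCGGAAG, which GABP binds, was in 33.9% of member promoters, 18.8% of those of other tested genes and 9.22% of all. The ETS letters end and the YY1 letters begin with AAG, so 1 stretch can hold both. The 30-base windows around the YY1 letters follow for the 9 members that hold them and passed the test in at least 1 comparison, with the motif or its reverse complement (GCCATCTT) in capitals, each read 5′ to 3′ on the strand of the gene.
Mrpl32 (chr17:55260420-55260449, + strand): aaccgcgttctGCCATCTTtacccggaaag
Mrpl37 (chr5:127074943-127074972, - strand): ctgcccgggcaAAGATGGCggcgtccaggt
Mrpl42 (chr7:32028485-32028514, - strand): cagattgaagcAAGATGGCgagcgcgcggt
Mrpl48 (chr1:164351535-164351564, - strand): actcggtaacaAAGATGGCaactaatactg
Mrpl49 (chr1:212779293-212779322, - strand): ttggaggagcaAAGATGGCagcaaatgtat
Mrpl50 (chr5:68668043-68668072, - strand): ggagcttgtcgAAGATGGCggcgctgtgtg
Mrps6 (chr11:44778653-44778682, + strand): aagattccatcAAGATGGCagccaagaccc
Mrps18a (chr9:22367362-22367391, - strand): ggtgtgttcccAAGATGGCggccctcaggg
Mrps18b (chr20:2843023-2843052, + strand): ggatgtgcgacAAGATGGCtgcctccttgc
The letters occur in genes that rose and in genes that fell: of the 14 tested members with the motif, 4 rose and 3 fell with YEXX-2A, and 4 rose and 1 fell with YWCH-4A. Of the 42 tested members with a promoter entry and no match, 3 rose and 5 fell with YEXX-2A, and 5 rose and 4 fell with YWCH-4A. Of all tested genes 17.6% rose and 18.5% fell with YEXX-2A, and 15.7% rose and 14.9% fell with YWCH-4A. Whether calls differ by motif was not tested. A match describes the letters and is no evidence of binding.

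Of the other motifs, the palindromic consensus letters of NRF1 were in 6.78% of member promoters, 2.04% of those of other tested genes and 0.932% of all. The GC box GGGCGG was in 50.8%, 65.3% and 34.9% of the same sets, and the letters CCAAT of the NF-Y box in 44.1%, 38.3% and 37.7%. The letters TATAAA were in 11.9%, 6.13% and 14.3%. Both GC box and CCAAT letters are seen in the 150 bases before the start of Mrpl37, which fell with each compound, and of Mrpl49, which rose with each, shown to set a falling beside a rising member (capitals mark GC boxes and CCAAT letters on either strand).
Mrpl37 (chr5:127074968-127075117, - strand): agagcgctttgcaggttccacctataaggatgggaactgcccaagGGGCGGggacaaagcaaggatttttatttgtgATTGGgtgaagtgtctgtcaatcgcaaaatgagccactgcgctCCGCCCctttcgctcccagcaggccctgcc
Mrpl49 (chr1:212779328-212779477, - strand): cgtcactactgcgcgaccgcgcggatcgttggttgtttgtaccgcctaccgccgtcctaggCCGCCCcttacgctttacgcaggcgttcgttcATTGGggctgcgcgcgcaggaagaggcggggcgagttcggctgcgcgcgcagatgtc
The promoter set also differed in layout: 17 of 59 member starts (28.8%) lay within 1000 bases of the start of a gene on the opposite strand, against 17.0% of other tested genes. One such pair is made of members, Mrpl46 and Mrps11, whose starts are 234 bases apart. With YEXX-2A the log2 fold change of Mrpl46 was 0.03 and that of Mrps11 -0.17, and neither was called. Median GC content of the 300-base entries was 56.0% in members, 61.7% in other tested genes and 52.3% in all.

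**Figure D1:**
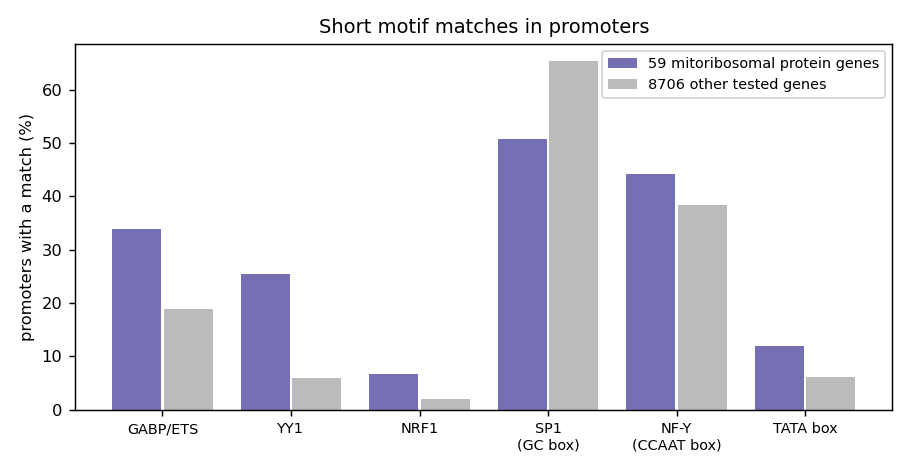
Share of promoters (%, vertical axis) that hold the letters of each of 6 short motifs on either strand, for the 59 member promoters (purple) and the 8706 promoters of other tested genes (grey). The YY1 letters were in 25.4% of member promoters and 5.95% of the others, and the GC box in 50.8% and 65.3%.

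Levels differed more between members than between conditions. On the deposited FPKM scale, which divides by transcript length, the mean level over the 9 libraries spanned 45.6-fold among tested members. Mrpl23, next to the polypeptide exit site, was highest at 109 ± 11.9 FPKM with YEXX-2A, 128 ± 9.97 FPKM with YWCH-4A and 107 ± 9.66 FPKM with vehicle (SD, n = 3 each). Mrpl43 and Mrpl17 followed at 77.8 and 77.1 FPKM over all libraries, and these neighbours in the order did not differ beyond their spread. Lowest were Mrpl47 at 2.51, Mrpl50 at 3.94 and Mrps31 at 4.24 FPKM. Mrpl47 had fractional counts in all 9 libraries, and its gene overlaps Actl6a and Ndufb5, so its level is uncertain. The median level was 28.9 FPKM for large-subunit and 20.1 FPKM for small-subunit genes.

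The 3 members that failed the filter were all of the large subunit. Mrpl1, a protein of the stalk through which used tRNAs leave, had no count in the 3 YEXX-2A libraries, estimated counts of 10.99, 11.48 and 3.82 in the YWCH-4A libraries, and 10.52, 0 and 16.61 in the vehicle libraries. With 3 counts put in for the whole YEXX-2A group, its mean would be 11.6-fold lower with YEXX-2A than with vehicle. That figure takes the vehicle mean as exact, although it rests on the estimated counts of vehicle replicates 1 and 3. Vehicle replicate 2 was at 0 as well, so a 0 also occurs without a compound. It was tested in 10 alternatives (without the filter, or with 1 library left out), and edgeR called it lower with YEXX-2A than with vehicle in 8 of them (adjusted p of 0.000108 to 0.0691 over the 10). It was called higher with YWCH-4A than with YEXX-2A in 3 of the 10 (edgeR adjusted p of 0.000256 to 0.0864). For YWCH-4A over vehicle it was called in none of the 10 (edgeR adjusted p of 0.0931 to 0.858). The lowest value of each of these ranges came from leaving out vehicle replicate 2, the vehicle library at 0. The next lowest edgeR adjusted p was 0.0209 for YEXX-2A over vehicle and 0.0249 for YWCH-4A over YEXX-2A. The counts of Mrpl1 above 0 were fractional, so part of its level is an estimate. Mrpl33 had 12, 6 and 7 counts with YEXX-2A, 12, 3 and 7 with YWCH-4A and 8, 6 and 3 with vehicle. Mrpl36 had 6.18, 7.63 and 4.30 counts with YEXX-2A, 3.83, 3.48 and 8.45 with YWCH-4A and 2.93, 0 and 0.56 with vehicle. Without the filter neither Mrpl33 nor Mrpl36 was called in any comparison, and their differences were not detectable at this depth.

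The first comparison asked how the members stood in TGF-β1-treated cells given YEXX-2A. Of 71 tested members 19 were called at an adjusted p under 0.05, which is 26.8%, while 36.1% of all 11473 tested genes were called (17.6% higher, 18.5% lower). The share of members called was thus below the background in this test, but not in every alternative. Without the low-count filter edgeR called 25.7% of members and 25.4% of all genes. With limma on log2(FPKM + 1) 33.8% of members and 32.4% of all genes were called. In the filtered edgeR test the median log2 fold change was 0.03 over members and 0.01 over all tested genes, and values ran from -0.65 to 0.53. For 45 of 71 members the 95% interval of the log2 fold change lay within ±0.5. Below, whether groups overlap is mostly told of called members picked for large fold changes, so it adds no support to the calls. The share of all tested genes without overlap was not computed.

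In the large subunit 5 of 42 tested members rose with YEXX-2A and 7 fell, with a median of 0.01. Mrpl32, whose maturation by the m-AAA protease is a control point of ribosome assembly in yeast and mouse, had 16.01, 14.4 and 13.3 CPM in the YEXX-2A libraries, against 9.38, 8.16 and 12.8 CPM in the vehicle libraries. The groups did not overlap, and the log2 fold change was 0.53 (SE 0.17, edgeR adjusted p = 0.0335). The mitochondria-specific Mrpl42 had 8.92, 7.78 and 8.95 CPM with YEXX-2A and 6.06, 5.07 and 6.92 CPM with vehicle, a rise of 0.50 (SE 0.15, edgeR adjusted p = 0.0301). Every YEXX-2A library was above every vehicle library. Smaller rises were those of Mrpl50 (0.41), Mrpl49 (0.39) and Mrpl13 (0.29), the last a bacterial-type protein that joins the ribosome early in bacteria.

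Among large-subunit genes that fell with YEXX-2A, Mrpl53 had the lowest fold change. It had 3.27, 2.39 and 3.77 CPM with YEXX-2A, against 4.88, 5.78 and 4.08 CPM with vehicle (log2 fold change -0.65, SE 0.20, edgeR adjusted p = 0.0296). The groups did not overlap, but its counts were fractional in all 9 libraries, as where an estimator divides reads between gene models. Mrpl2, which lies by the peptidyl transferase centre, had 24.2, 21.3 and 25.9 CPM with YEXX-2A and 29.95, 37.5 and 29.8 CPM with vehicle (-0.45, SE 0.12, edgeR adjusted p = 0.0201). The mitochondria-specific Mrpl37 had 77.6, 77.8 and 86.2 CPM in YEXX-2A libraries, against 99.95, 120.2 and 98.3 CPM in vehicle libraries. Its groups were well apart (-0.40, SE 0.09, edgeR adjusted p = 0.0116). Its gene overlaps Ssbp3 in the annotation, and reads of overlapping genes cannot be told apart because the strand of the reads is not stated. Also lower were Mrpl38 of the central protuberance (-0.38), the stalk protein Mrpl12 (-0.35), Mrpl4, which lines the exit tunnel (-0.32), and Mrpl28 (-0.32).

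In the small subunit 4 of 29 members rose and 3 fell with YEXX-2A, with a median of 0.08. Mrps22, mutated in a human mitochondrial disease, had 17.0, 20.3 and 20.2 CPM with YEXX-2A and 13.3, 10.1 and 17.4 CPM with vehicle (0.49, SE 0.17, edgeR adjusted p = 0.0437). The highest vehicle library lay above the lowest YEXX-2A library. Mrps21 had 12.8, 12.7 and 10.3 CPM with YEXX-2A and 8.99, 6.81 and 9.77 CPM with vehicle, without overlap (0.49, SE 0.16, edgeR adjusted p = 0.0366). Mrps33 (0.38) and Mrps18c (0.35) also rose. Mrps18b had 40.8, 36.5 and 35.4 CPM with YEXX-2A, against 50.8, 55.6 and 43.9 CPM with vehicle (-0.41, SE 0.10, edgeR adjusted p = 0.0149). Mrps24, the counterpart of the bacterial S3 protein at the mRNA entry, had 20.9, 19.9 and 18.9 CPM with YEXX-2A, against 26.4, 29.8 and 23.2 CPM with vehicle (-0.41, SE 0.10, edgeR adjusted p = 0.0171). Both pairs of groups were apart. The third to fall was Mrps18a (-0.31).

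These calls rested on few libraries. Without YEXX-2A replicate 1 edgeR called 3 members, all lower, with 19 at an unadjusted p under 0.05, and 12.6% of all genes. Without YEXX-2A replicate 2 it called 0 members, with 22 at an unadjusted p under 0.05, and 9.03% of all genes. With all libraries 28 members were at an unadjusted p under 0.05, and DESeq2 called 19 members and 40.4% of all genes. With only the 2 groups compared edgeR called 1 member, which was lower, and 12.5% of all genes, and with a replicate block 5 members, all lower, and 16.8% of all genes, so that none of the 9 rises was called in either. The YWCH-4A libraries enter this comparison only through the shared spread, the filter and the scaling. Leaving out YWCH-4A replicates 1, 2 or 3 left 2, 4 and 2 members called higher and 9 each time lower. Of all genes 25.3%, 26.7% and 26.2% were then called. Without vehicle replicate 2, 8 rose and 10 fell, Mrpl1 among those that fell, with 35.1% of all genes called, and 13 of the 19 called members were still called. Lost were the calls of Mrpl28, Mrpl42, Mrpl50, Mrpl53, Mrps18a and Mrps18c. On log2(FPKM + 1) with limma, 16 members were called higher and 8 lower, and 32.4% of all genes were called. Of all called genes 62% were higher, against 48.8% in the edgeR test.

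The same question was asked of YWCH-4A. Of 71 members 18 were called (25.4%), 11 higher and 7 lower, against a background of 30.6% of all tested genes (15.7% higher, 14.9% lower). The median was 0.02 over members and 0.03 over all genes, and values ran from -0.42 to 0.69. The 95% interval lay within ±0.5 for 45 of 71.

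In the small subunit 6 of 29 members rose with YWCH-4A and 1 fell, with a median of 0.06. Mrps21 had 12.6, 15.7 and 13.1 CPM in YWCH-4A libraries, against 8.99, 6.81 and 9.77 CPM in vehicle libraries (log2 fold change 0.69, SE 0.16, edgeR adjusted p = 0.00658). Mrps12, which forms part of the decoding site and in bacteria is where streptomycin resistance arises, had 30.3, 29.9 and 29.2 CPM with YWCH-4A and 21.7, 22.7 and 19.6 CPM with vehicle (0.48, SE 0.09, edgeR adjusted p = 0.00166). For both genes all YWCH-4A libraries were above all vehicle libraries. The annotation places an uncharacterised gene over Mrps12. Mrps33 had 15.7, 17.8 and 15.7 CPM with YWCH-4A, against 12.9, 10.9 and 11.1 CPM with vehicle (0.49, SE 0.13, edgeR adjusted p = 0.0122). Mrps17, a bacterial-type protein that binds the small-subunit RNA, had 26.0, 28.02 and 26.4 CPM with YWCH-4A, against 23.4, 18.9 and 17.9 CPM with vehicle (0.42, SE 0.11, edgeR adjusted p = 0.0151). Neither gene overlapped between groups. Mrps23 (0.37) and Mrps6 (0.32) rose as well, the Mrps6 call at an edgeR adjusted p of 0.0495 and kept in 4 of 19 alternatives. Mrps24 had 20.5, 21.3 and 20.4 CPM with YWCH-4A, against 26.4, 29.8 and 23.2 CPM with vehicle, the 1 small-subunit member that fell (-0.35, SE 0.10, edgeR adjusted p = 0.0248).

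In the large subunit 5 of 42 rose with YWCH-4A and 6 fell, with a median of -0.01. The 6 that fell had mean levels of 37.3 to 77.1 FPKM, above the large-subunit median. Mrpl37 had 82.6, 74.3 and 81.2 CPM with YWCH-4A and 99.95, 120.2 and 98.3 CPM with vehicle (-0.42, SE 0.09, edgeR adjusted p = 0.00504). Mrpl12, the counterpart of the bacterial L7/L12 stalk protein that recruits translation factors, had 66.5, 68.1 and 70.7 CPM with YWCH-4A, against 87.6, 99.8 and 78.5 CPM with vehicle (-0.37, SE 0.09, edgeR adjusted p = 0.00847). Mrpl45, which sits at the exit site facing the inner membrane, had 76.2, 76.1 and 78.5 CPM with YWCH-4A, against 97.0, 95.5 and 98.6 CPM with vehicle (-0.34, SE 0.07, edgeR adjusted p = 0.0051). None of these 3 genes overlapped between groups, and Mrpl45 had the tightest vehicle values. Mrpl38 (-0.38), Mrpl17 (-0.34) and Mrpl28 (-0.32) fell too. The rises were those of Mrpl49 (0.49), Mrpl50 (0.40), Mrpl13 (0.37), Mrpl52 (0.37) and Mrpl48 (0.35). Mrpl49 had 17.0, 19.4 and 17.4 CPM with YWCH-4A and 14.98, 11.2 and 11.9 CPM with vehicle (SE 0.13, edgeR adjusted p = 0.0143). Its counts were fractional in 5 libraries, among them all 3 YWCH-4A libraries, so part of its level is an estimate. Its gene overlaps Syvn1, and Mrpl48 overlaps Rab6a.

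Without YWCH-4A replicate 2 the counts were 4 higher and 4 lower, with 21.2% of all genes called, and without YWCH-4A replicate 1, 6 were higher and 5 lower, with 21.5% of all genes called. Without vehicle replicate 2, 11 rose and 6 fell, and 39.4% of all genes were called. Lost there were the calls of Mrpl28 and Mrpl50. The split between directions depended on the scaling. On log2(FPKM + 1) with limma, 25 members were called higher and 1 lower, and 41% of all genes were called. Of all called genes 78.1% were higher, against 51.2% in the edgeR test. That scale put the median of all genes at 0.18 in place of 0.03, and the medians of the large and small subunit at 0.16 and 0.23, so that relative to all genes the large subunit was lower and the small subunit higher on it, as with edgeR.

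**Figure D2:**
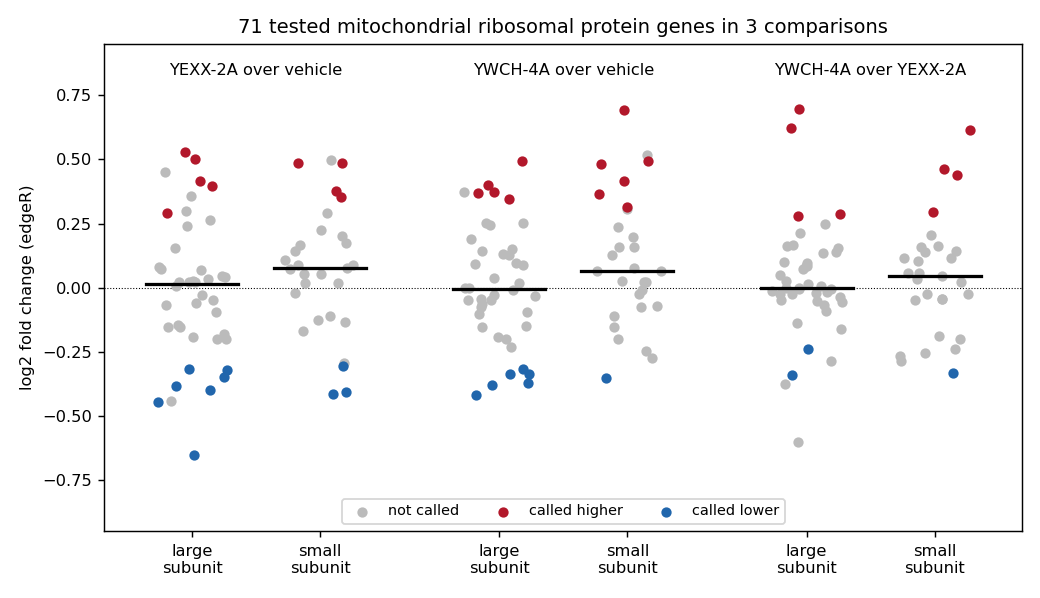
Log2 fold change (vertical axis, edgeR) of each of the 71 tested members, 1 point a gene, by subunit and comparison, with the median as a bar. Red points were called higher and blue points lower at an adjusted p under 0.05, and the medians lay between -0.01 and 0.08.

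**Figure D3:**
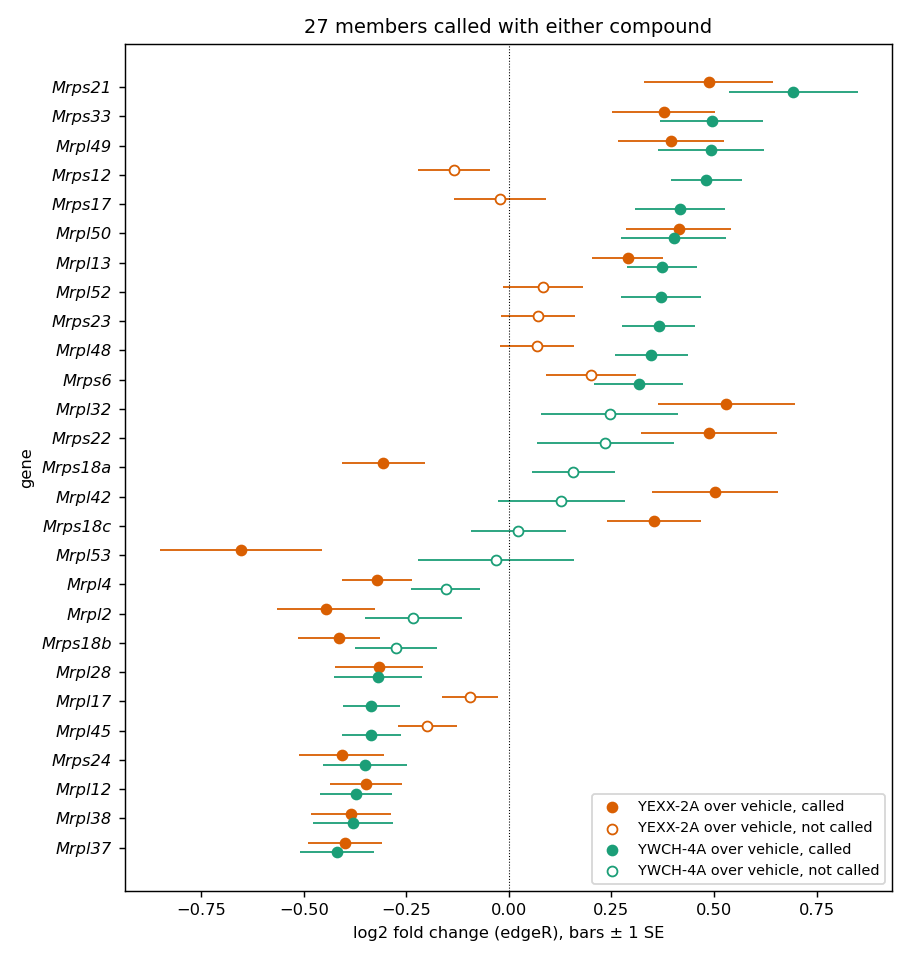
Log2 fold change (horizontal axis, bars ± 1 SE) of the 27 members called in at least 1 of the comparisons with vehicle, for YEXX-2A (orange) and YWCH-4A (green), filled where called. Both comparisons use the same 3 vehicle libraries, so their values are not independent, and Mrpl12, Mrpl37 and Mrpl38 are among the lowest.

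The compounds were then compared with each other. Labels give no doses, so whether these match is unknown, and the structures are not given either. Of 71 members 11 were called (15.5%), 8 higher and 3 lower with YWCH-4A, against a background of 31.3% of all tested genes (16.2% higher, 15.1% lower). The median was 0.02 over members and 0.00 over all genes. For 54 of 71 members the 95% interval lay within ±0.5.

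Mrps12 had 30.3, 29.9 and 29.2 CPM with YWCH-4A, against 19.8, 19.8 and 18.7 CPM with YEXX-2A, the smallest p of any member (log2 fold change 0.62, SE 0.09, edgeR adjusted p = 0.000345). Mrps18a had 45.5, 41.0 and 41.1 CPM with YWCH-4A and 32.7, 29.7 and 30.1 CPM with YEXX-2A (0.46, SE 0.10, edgeR adjusted p = 0.00575). Mrps17 had 26.0, 28.02 and 26.4 CPM with YWCH-4A and 20.6, 20.1 and 18.6 CPM with YEXX-2A (0.44, SE 0.11, edgeR adjusted p = 0.0117). Groups were apart for all 3 genes. Mrpl34, a small bacterial-type protein, had 7.41, 7.47 and 7.38 CPM with YWCH-4A, against 3.68, 4.98 and 5.18 CPM with YEXX-2A (0.70, SE 0.19, edgeR adjusted p = 0.0178). Mrpl53 had 4.69, 4.67 and 5.07 CPM with YWCH-4A and 3.27, 2.39 and 3.77 CPM with YEXX-2A (0.62, SE 0.19, edgeR adjusted p = 0.0324). In both low genes the YWCH-4A libraries lay close together and above all YEXX-2A libraries. Mrps23 (0.29), Mrpl52 (0.29) and Mrpl48 (0.28) completed the rises. Mrpl20, among the first proteins to bind the large-subunit RNA in bacteria, had 41.2, 41.7 and 39.5 CPM with YWCH-4A, against 56.3, 48.2 and 50.5 CPM with YEXX-2A (-0.34, SE 0.09, edgeR adjusted p = 0.0195). Mrps18c had 9.38, 10.3 and 9.76 CPM with YWCH-4A, against 12.5, 12.5 and 12.1 CPM with YEXX-2A (-0.33, SE 0.11, edgeR adjusted p = 0.0445). Mrpl17 had 63.9, 63.1 and 62.1 CPM with YWCH-4A, against 80.4, 69.8 and 73.2 CPM with YEXX-2A (-0.24, SE 0.07, edgeR adjusted p = 0.0227). These 3 genes did not overlap between the compounds.

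Without YWCH-4A replicate 1, 2 or 3 only 3 members were called each time, all higher, with 19.8%, 21.7% and 19.7% of all genes called. Without YEXX-2A replicate 1, 4 were called, all higher, and 21.4% of all genes. Without YEXX-2A replicates 2 and 3, 4 and 5 were called higher and 2 each time lower, with 19.2% and 25.9% of all genes called. Vehicle replicate 2 enters this comparison only through the shared spread, the filter and the scaling. Without it, 13 rose, Mrpl1 among them, and 8 fell. That is 29.2% of the members then tested, against 51.6% of all genes. On log2(FPKM + 1) with limma 13 members were called, all higher, and 35.8% of all genes were called. Of all called genes 72.6% were higher, against 51.7% in the edgeR test. Mrps12 and Mrps18a were called in all 19 alternatives.

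**Figure D4:**
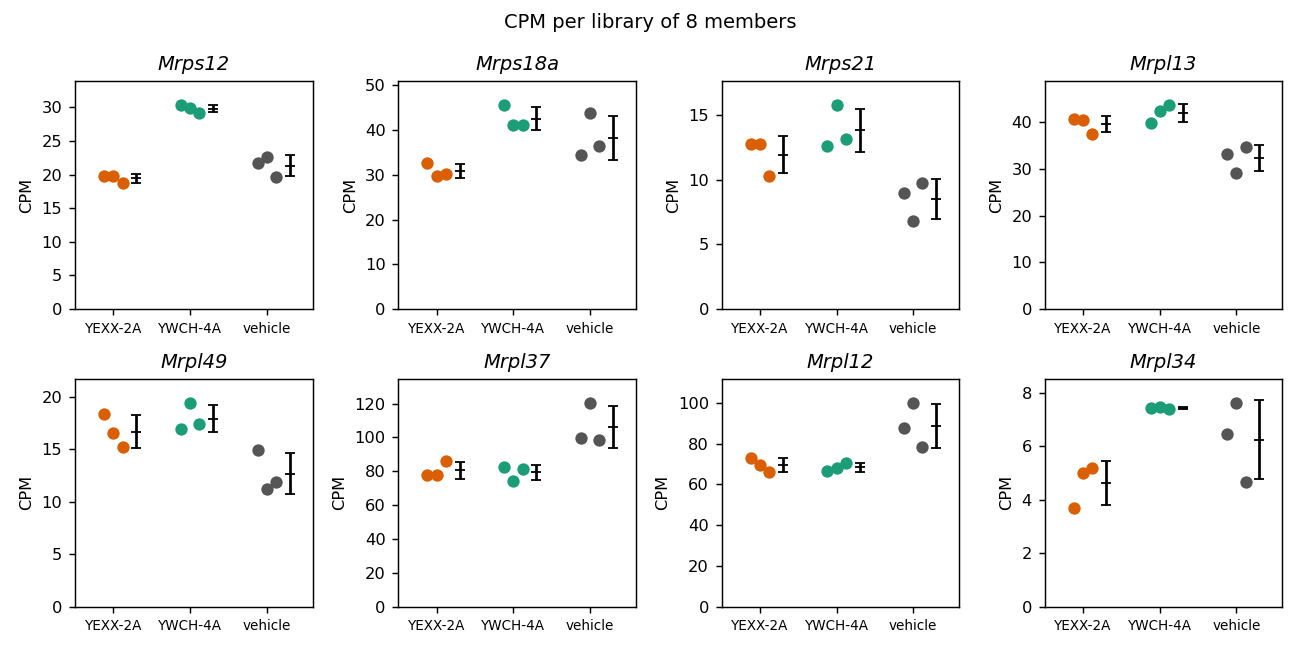
CPM (vertical axes, from 0) of 8 members in each of the 9 libraries, 1 point a library, with the mean ± SD beside each group of 3. Mrps12 was at 29.2 CPM or above in the YWCH-4A libraries and at or below 19.8 CPM in the YEXX-2A libraries, and Mrpl37 was at 86.2 CPM or below with each compound and at 98.3 CPM or above with vehicle.

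Summed over the 45 large-subunit members, transcripts came to 1382, 1309 and 1340.3 CPM with YEXX-2A, 1351, 1348 and 1348 CPM with YWCH-4A and 1444, 1488 and 1369 CPM with vehicle. The YEXX-2A and vehicle ranges overlapped, while all YWCH-4A libraries were below all vehicle libraries. Summed over the 29 small-subunit members, the values were 707, 674 and 672 CPM with YEXX-2A, 721, 713 and 700.4 CPM with YWCH-4A and 679.6, 716 and 658 CPM with vehicle, overlapping between all groups. The ratio of the large to the small sum was 1.95, 1.94 and 1.99 with YEXX-2A, 1.88, 1.89 and 1.92 with YWCH-4A and 2.13, 2.08 and 2.08 with vehicle. With subunits taken from the symbol, the 3 groups were apart in this ratio, at 1.96 ± 0.0282, 1.90 ± 0.0253 and 2.09 ± 0.0275 (SD, n = 3 each). The ratio does not depend on the scaling of libraries. Between the compounds the small-subunit sum differed by 26.8 CPM, the balance of 17 higher and 12 lower means. Largest among the higher was Mrps18a (11.7 CPM), a large-subunit protein by structure. The ratio was not computed by structure, so the order of the compounds in it holds for the symbols only. No test was run, because the members were chosen with earlier results known. Per length, the ratio of summed FPKM was 1.89 ± 0.0286 with YEXX-2A, 1.81 ± 0.0272 with YWCH-4A and 1.99 ± 0.0289 with vehicle.

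A few abundant genes carried the change in the large-subunit sum. With YEXX-2A the mean sum differed from that of vehicle by -90.1 CPM, as the balance of 21 members with lower means (-139 CPM together) and 24 with higher means (49.0 CPM together). Single members contributed -25.6 CPM (Mrpl37), -19.1 CPM (Mrpl12), -13.6 CPM (Mrpl38), -12.4 CPM (Mrpl45) and -11.9 CPM (Mrpl4). With YWCH-4A the large-subunit sum differed from that of vehicle by -84.8 CPM, with -26.8 CPM from Mrpl37, -20.2 CPM from Mrpl12, -20.1 CPM from Mrpl45, -16.5 CPM from Mrpl17 and -13.4 CPM from Mrpl38. The small-subunit sum differed from that of vehicle by -0.166 CPM with YEXX-2A and by 26.7 CPM with YWCH-4A, where Mrps12 was 8.45, Mrps17 6.76 and Mrps23 6.66 CPM higher. The total scale moved too: as a share of all counts the members held 0.202% with YEXX-2A, 0.219% with YWCH-4A and 0.199% with vehicle, the same libraries whose scaling factors (TMM) averaged 0.999, 1.06 and 0.943. On unscaled shares the large-subunit transcripts were thus at 0.143% with YWCH-4A and 0.135% with vehicle, the opposite direction to the scaled sums.

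**Figure D5:**
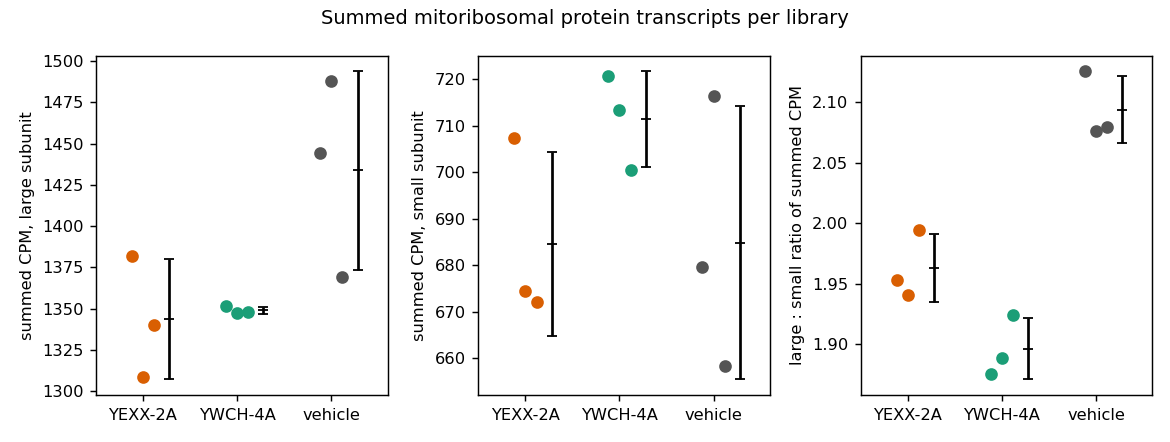
Summed CPM of the large-subunit members, of the small-subunit members, and the ratio of the sums (vertical axes, which do not start at 0), 1 point a library, with the mean ± SD beside each group of 3. With subunits taken from the symbol, the ratio was at 1.94 to 1.99 with YEXX-2A, 1.88 to 1.92 with YWCH-4A and 2.08 to 2.13 with vehicle.

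Symbol and structure part ways for a few members. Mrps30 and Mrps18a lie in the large subunit of mammalian mitoribosomes despite their symbols, and Mrps36 is a component of the 2-oxoglutarate dehydrogenase complex. Placed by structure, 5 of 44 tested large-subunit genes rose and 8 fell with YEXX-2A, and 5 rose and 6 fell with YWCH-4A. Of 26 small-subunit genes 4 rose and 2 fell with YEXX-2A, and 6 rose and 1 fell with YWCH-4A. Called were thus 29.5% of large-subunit and 23.1% of small-subunit genes with YEXX-2A, below the 36.1% of all tested genes, and 25% and 26.9% with YWCH-4A, below the 30.6% of all tested genes. Medians were 0.01 and 0.07 for the large and small subunit with YEXX-2A, and 0.00 and 0.07 with YWCH-4A.

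The 3 paralogs of bacterial S18 differed in direction with YEXX-2A. Mrps18c, the one in the position of bacterial S18, averaged 12.3 ± 0.247 CPM with YEXX-2A, 9.82 ± 0.474 with YWCH-4A and 9.65 ± 1.17 with vehicle (SD, n = 3 each). Mrps18b averaged 37.5 ± 2.84, 41.4 ± 2.41 and 50.1 ± 5.89 CPM with YEXX-2A, YWCH-4A and vehicle. For Mrps18a the means were 30.9 ± 1.66, 42.5 ± 2.57 and 38.2 ± 4.90 CPM. With YEXX-2A, Mrps18c rose and Mrps18a and Mrps18b fell, and between the compounds Mrps18a was higher and Mrps18c lower with YWCH-4A. The YEXX-2A call was kept in 17 of 19 alternatives for Mrps18b and in 8 each for Mrps18a and Mrps18c. Without vehicle replicate 2, Mrps18a and Mrps18c were not called with YEXX-2A (edgeR adjusted p = 0.0583 and 0.0792). Between the compounds Mrps18a was called in 19 of 19 and Mrps18c in 8. None of the 3 was called with YWCH-4A over vehicle. Reads of paralogs can be shared out by the estimator. None of these 3 genes had a fractional count, and the part of shared reads was not tested.

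Other members of known role were not called against vehicle. Mrpl10, the base of the stalk that carries Mrpl12, had 74.2, 71.6 and 72.9 CPM with YEXX-2A, 72.3, 72.2 and 73.9 CPM with YWCH-4A and 77.1, 93.3 and 79.4 CPM with vehicle. Its log2 fold change was -0.19 with each compound (edgeR adjusted p = 0.074 for YEXX-2A and 0.0835 for YWCH-4A). Mrpl3, by the peptidyl transferase centre, was at -0.07 and 0.09. Mrpl44, which has an RNase III-like fold, was at -0.15 and 0.10, and Mrpl58, a peptidyl-tRNA hydrolase that became part of the ribosome, at -0.20 and -0.06. Mrps28, the S1-like protein of the small subunit, was at 0.06 and 0.20, Mrps30 at 0.11 and 0.06, and Mrps36 at 0.16 and -0.07, with YEXX-2A and YWCH-4A. The low-level Mrps31 had 7.73, 7.12 and 6.81 CPM with YEXX-2A, 7.04, 7.63 and 7.38 CPM with YWCH-4A and 6.19, 3.33 and 5.76 CPM with vehicle. Its fold changes of 0.50 and 0.52 were not called (edgeR adjusted p = 0.0666 and 0.0678), and vehicle replicate 2 was the lowest library.

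Cytosolic ribosomal proteins, by contrast, were mostly higher where called. Of 71 tested genes of the cytosolic ribosome 39 rose and 2 fell with YEXX-2A (median 0.34), 40 were called with YWCH-4A, all higher (median 0.30), and 3 rose between the compounds (median 0.01). The called shares were 57.7%, 56.3% and 4.23%, against 36.1%, 30.6% and 31.3% of all tested genes. Directions of calls depended on the scaling for all genes, and this set was not followed under other scalings. Many of these genes have near-identical copies, so single values are uncertain. The difference between both gene sets was not tested.

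Around the ribosome, the mRNAs that it translates differed between compounds. Of 13 mitochondrially encoded protein genes 8 rose with YEXX-2A (median 0.60), 1 was called with YWCH-4A, Mt-atp6 at -0.44 (median -0.11), and 11 were lower with YWCH-4A than with YEXX-2A (median -0.74). Their called shares were 61.5%, 7.69% and 84.6%, against 36.1%, 30.6% and 31.3% of all tested genes. Mt-nd6 rose by 1.15 (SE 0.19, edgeR adjusted p = 0.00344) and Mt-nd3 by 1.09 with YEXX-2A, both subunits of respiratory complex I, and Mt-co3 of cytochrome oxidase was at -0.92 between the compounds (SE 0.15, edgeR adjusted p = 0.000911). Libraries were made with oligo(dT), and the level of these RNAs also reads on RNA quality and polyadenylation, whose part was not tested.

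Subunits without an Mrp symbol numbered 5, all tested. Ptcd3, a pentatricopeptide-repeat protein of the small subunit, averaged 52.4 ± 4.85 CPM with YEXX-2A, 34.3 ± 1.78 with YWCH-4A and 29.1 ± 10.5 with vehicle (SD, n = 3 each), a rise of 0.84 with YEXX-2A (SE 0.21, edgeR adjusted p = 0.0171). Chchd1 rose by 0.33 and Gadd45gip1 fell by 0.29 with YEXX-2A, while with YWCH-4A Chchd1 rose by 0.35 and the GTP-binding Dap3 fell by 0.28. Between the compounds Aurkaip1 was at -0.21 and Ptcd3 at -0.61, both called.

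Of 32 factors of ribosome assembly and rRNA modification 4 rose and 7 fell with YEXX-2A, 2 rose and 5 fell with YWCH-4A, and 3 were higher and 2 lower between the compounds. Their called shares were 34.4%, 21.9% and 15.6%, each below that of all tested genes (36.1%, 30.6% and 31.3%). Afg3l2, the m-AAA protease subunit that matures Mrpl32, was at 0.30 with YEXX-2A (SE 0.07, edgeR adjusted p = 0.0113) and at 0.86 with YWCH-4A (SE 0.07, edgeR adjusted p = 4.11e-06), and at 0.56 between the compounds. The GTPase gene Gtpbp10 rose by 1.13 with YEXX-2A, and Rcc1l and Mettl17 were at -0.43 and -0.50 with YWCH-4A. Of 17 translation factors 2 rose and 2 fell with YEXX-2A, 2 rose and 1 fell with YWCH-4A, and 2 were higher between the compounds. At 23.5%, 17.6% and 11.8% called, they too were below all tested genes. Tufm, the elongation factor that delivers tRNAs, was at -0.27 and -0.24 with YEXX-2A and YWCH-4A. Slirp, which stabilises mitochondrial mRNAs, was at 0.72 with each, and the insertase Oxa1l, which takes the new chains into the membrane, was at -0.29 with YEXX-2A and 0.48 between the compounds. Mtrfr, a ribosome rescue factor, rose by 0.93 with YWCH-4A.

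Of 19 tested genes of mitochondrial transcription and RNA processing 8 rose and 3 fell with YEXX-2A, 2 rose and 5 fell with YWCH-4A, and 1 was lower between the compounds. Their called shares were 57.9%, 36.8% and 5.26%, against 36.1%, 30.6% and 31.3% of all tested genes. Grsf1, an RNA granule protein, was at 0.34 and 0.30 with YEXX-2A and YWCH-4A, and the DNA polymerase gene Polg at -0.39 and -0.37. Of 21 mitochondrial aminoacyl-tRNA synthetases 1 rose and 2 fell with YEXX-2A, 1 rose and 1 fell with YWCH-4A, and 1 was higher between the compounds. At 14.3%, 9.52% and 4.76% called, they were below all tested genes. Vars2 was at -0.40 with YEXX-2A. Of 30 genes of protein import and folding 7 rose and 5 fell with YEXX-2A, 4 rose and 3 fell with YWCH-4A, and 1 was higher and 5 lower between the compounds. Here 40%, 23.3% and 20% were called, above all tested genes with YEXX-2A and below them in the others. The matrix protease gene Lonp1 was at -0.51 and -0.98 with YEXX-2A and YWCH-4A, and the chaperone Hspa9 at -0.67 with YWCH-4A.

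Regulators of mitochondrial biogenesis were lower where called, with few exceptions. Of 15 tested genes 2 rose and 6 fell with YEXX-2A, 7 fell with YWCH-4A, and 1 was higher and 5 lower between the compounds. Their called shares were 53.3%, 46.7% and 40%, against 36.1%, 30.6% and 31.3% of all tested genes. Myc, which drives ribosome production, averaged 158 ± 8.40 CPM with YEXX-2A, 83.8 ± 2.95 with YWCH-4A and 222 ± 21.1 with vehicle (SD, n = 3 each). Its log2 fold change was -0.49 with YEXX-2A (SE 0.08, edgeR adjusted p = 0.00306) and -1.40 with YWCH-4A (SE 0.08, edgeR adjusted p = 3.6e-07). Stress regulators of this list, Atf4 and Atf5, were at -1.15 and -0.97 with YWCH-4A. Nrf1, Gabpa and Yy1 are named because their motifs were searched, after their values were seen. Nrf1 transcripts were at -0.33 and -0.26 with YEXX-2A and YWCH-4A, both called. Gabpa, which encodes the DNA-binding part of GABP, averaged 27.8 ± 2.90 CPM with YEXX-2A, 19.3 ± 1.14 with YWCH-4A and 16.2 ± 6.44 with vehicle, and was called with YEXX-2A (0.77, edgeR adjusted p = 0.0312). Yy1 averaged 30.3 ± 2.69, 27.4 ± 0.972 and 25.2 ± 6.12 CPM with YEXX-2A, YWCH-4A and vehicle and was not called in any comparison.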

How the data were processed

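RNA was sequenced from 9 libraries of NRK-49F cells, after oligo(dT) enrichment and an NEBNext Ultra RNA kit, per the labels' protocols. StringTie 1.3.1, RSEM, DESeq2 and edgeR are named in the submitters' processing notes, without role or order. The aligner, build and annotation are not given in the sources used here. Per the file headers, the table deposited by the authors gives 2 values for each gene in each library, an FPKM and an expected count (a read count estimated per gene). Among counts above 0, 8.87% were fractional, and all were rounded here.

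Total counts were 13675880 to 21923706 per library. Genes were filtered with filterByExpr (minimum count 10), and libraries were scaled by TMM. CPM values use the scaled sizes. All 9 libraries entered the robust quasi-likelihood test of edgeR 4.0.16 (R 4.3.3), with group as the factor, two-sided, with Benjamini-Hochberg adjustment over 11473 genes and calls at an adjusted p under 0.05. The standard error was the log2 fold change divided by the square root of F, and intervals are 95%. The groups share an estimate of the spread although their spreads differed.

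The members, gene lists and naming rule were chosen with earlier results of these data known. Named members are the 5 largest rises and 5 largest falls called per comparison, the 3 highest and 3 lowest in FPKM, members of special role and those that failed the filter. Other called members are given by fold change alone. From each other list up to 3 called genes with the smallest p are named, except for 1 gene that is not reported here. Tried besides were scaling by upper quartiles or by DESeq2 size factors, a filter at 1 CPM in 6 libraries or none, other tests (DESeq2 1.42.0, and limma 3.58.1 on voom values, on log2(FPKM + 0.1) and on log2(FPKM + 1)), a fit to the 2 groups alone, a block for the replicate number, and leaving out each library. Overlapping genes, promoters and motifs were taken from RefSeq tables of GRCr8. Of the members, 73 matched its gene table, and 19 overlapped another gene.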

Additional observations from a re-analysis of the deposited data

How the results depend on the processing

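Every called member kept its sign in 19 of 19 alternatives in the comparison where it was called. For the members named by their rank in fold change, 424 values under an alternative kept direction and call and 108 kept direction and lost the call. Called in all 19 were Mrpl13, Mrpl37, Mrps12 and Mrps21 for YWCH-4A over vehicle, Mrps12 and Mrps18a for YWCH-4A over YEXX-2A, and no member for YEXX-2A over vehicle. Counts depended on the libraries used, and the causes were not tested. With 1 library left out, members called with YEXX-2A over vehicle ran from 0 to 8 higher and 0 to 15 lower. With YWCH-4A over vehicle they ran from 4 to 12 higher and 4 to 9 lower. With YWCH-4A over YEXX-2A they ran from 3 to 13 higher and 0 to 8 lower. The share of all genes called ran from 9.03% to 45.6%, 21.2% to 39.4% and 19.2% to 51.6% in the same order. The large-subunit medians ran from -0.047 to 0.0022, -0.025 to 0.0045 and -0.0015 to 0.040 in these 3 comparisons, and the small-subunit medians from 0.062 to 0.086, 0.042 to 0.10 and 0.018 to 0.068. A group left with 2 libraries keeps the spread shared with the others.

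With limma on log2(FPKM + 1), members called higher were 16 for YEXX-2A over vehicle, 25 for YWCH-4A over vehicle (1 lower) and 13 for YWCH-4A over YEXX-2A (0 lower), and on log2(FPKM + 0.1) 16, 24 (1 lower) and 13 (0 lower). Of all genes 32.4%, 41% and 35.8% were called with a pseudocount of 1, and 31.3%, 40.4% and 34.7% with 0.1. The FPKM values carry no TMM scaling. With a pseudocount of 1 the large-subunit medians were 0.093, 0.16 and 0.086 and the small-subunit medians 0.15, 0.23 and 0.13 in the same comparisons. With 0.1 they were 0.095, 0.17 and 0.091, and 0.16, 0.25 and 0.13. With DESeq2 the small-subunit median for YWCH-4A over vehicle was 0.041. Members called lower for YWCH-4A over YEXX-2A were 5 with upper-quartile factors, DESeq2 and limma-voom, and 10 with only the 2 groups compared. Of all genes 31.1%, 32.8%, 33.6% and 51.5% were called in these settings. With only the 2 groups, YEXX-2A over vehicle had 0 members called higher and 1 lower, with 12.5% of all genes called. With a replicate block it had 0 higher and 5 lower, with 16.8% of all genes called. YWCH-4A over YEXX-2A then had 5 higher and 1 lower, with 22.8% of all genes called. Same-numbered libraries of different groups had correlations of their deviations between -0.27 and 0.08, and differently numbered ones between -0.20 and 0.23. Deviations within a group sum to 0 and vehicle replicate 2 stood apart, so these values cannot tell whether the replicate numbers pair the libraries. At this depth the rarest tested member had a mean of 71.8 counts a library, and Mrpl1, Mrpl33 and Mrpl36 were below the low-count filter.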
